A study of Mus musculus with 2 samples.

Results

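The genes described are 10 abundant genes of the actin, thymosin and vimentin cytoskeleton, Actb, Actg1, Tmsb4x, Tmsb10, Vim, Cfl1, Pfn1, Myl6, Tpm4 and Anxa2, of 23154 genes with a row in the count tables. They were chosen by name, with earlier results of these data known. Every one of the 10 had counts, in 78 to 87 of the 87 cells. The cells were PK44 cells of the mouse yolk sac at E10.0, sorted as CD41-CD43-CD45-CD31+CD201+Kit+CD44+ from embryos on a C57BL/6 background. PK44 is the name of a gate for hemogenic endothelial cells, and all cells were of this single condition. They came as 2 libraries made by modified STRT-seq, replicate 1 with 43 cells and replicate 2 with 44 cells. Nothing in the labels says whether the libraries came from separate litters, so that p-values do not measure a spread between litters. They rest on how differences within these 2 libraries varied, with a spread taken almost wholly from other genes. No treated or mutant group was part of the series, and the comparisons are therefore between cells with more and less Runx1, or more and less Cdh5, within each library.

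Actin monomers assemble into filaments that carry cell shape, adhesion and movement. Thymosins bind free monomers, profilin and cofilin drive the growth and severing of filaments, tropomyosin and myosin light chains belong to the contractile filaments, and vimentin forms a separate intermediate filament network. During the endothelial-to-hematopoietic transition, flat endothelial cells of the vessel wall round up and leave it, with a rearrangement of cortical actin. Runx1 is the transcription factor required for this transition, and Cdh5 encodes VE-cadherin, the adhesion protein of endothelial junctions.

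Start site sequence was found in the RefSeq promoter table (GRCm38.p6) for 9 of the 10 genes, all except Actb. The 250 bases before each start were searched on both strands for the CArG box, the binding site of the actin gene regulator SRF, for TATAAA and for GGGCGG. Myl6 and Tmsb10 had more than 1 start. A CArG box was found before Actg1 and before a start of Myl6, and 1.47% of 32851 windows of this length over all genes held a CArG box. The other start of Myl6 (table window chr10:128493837-128494136, minus strand) had none of these motifs before it. The letters TATAAA were found before Vim and Anxa2, and 12.4% of all windows held them. GGGCGG stood before at least 1 start of each matched gene except Cfl1 and Vim. This is a count by gene, while the 32.7% of all windows that held it is a share by start. No match of a motif overlapped a match of another. The 4 sites of the rarer motifs are shown on the strand of the gene with the motif in capitals, because these genes differ below in how their levels varied between cells. The match is a description of letters and not of a bound site. The window of Actg1 is chr11:120348566-120348595 (minus strand), before the annotated gene. That of Myl6 is chr10:128493040-128493069 (minus strand), that of Vim chr2:13574267-13574296 (plus strand) and that of Anxa2 chr9:69453654-69453682 (plus strand), and each of these 3 overlaps an annotated exon of a longer transcript of the same gene.
Actg1: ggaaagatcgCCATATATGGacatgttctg
Myl6: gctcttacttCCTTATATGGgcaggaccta
Vim: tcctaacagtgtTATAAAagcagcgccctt
Anxa2: ggatggggcgggTATAAAagccccaccca

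Depth per cell ranged from 13218 to 702028 counts in replicate 1 (median 141577) and from 51620 to 956593 in replicate 2 (median 238899). All 8 endothelial markers were detected in both libraries, with summed levels of 2387 and 4150 CPM (counts scaled to 1000000 per library or cell), and no cell name was shared by the libraries. The 7 hematopoietic markers, Runx1 among them, summed to 634 and 282 CPM. Markers of other cell types were low, except for the mesenchymal ones. The 5 smooth muscle markers summed to 42.4 and 36.8 CPM, nearly all of it Acta2 (39.7 and 33.9 CPM). The 5 visceral endoderm markers summed to 0 and 16.4 CPM, the 5 erythroid markers to 10.2 and 22.4 CPM, and the 5 macrophage markers to 69.7 and 28.0 CPM, nearly all of it Lyz2 (64.1 and 27.5 CPM), with no count of C1qa, C1qb and Adgre1. The 6 mesenchymal markers summed to 838 and 333 CPM, and 3 cells, 2 of replicate 1 and 1 of replicate 2, each held at least 100 counts of every one of Col1a1, Col1a2, Col3a1 and Lum. The results below are therefore also given without these 3 cells where they changed.

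The 10 genes took 1.66% of all counts in replicate 1 (exact 95% interval 1.66 to 1.67) and 2.69% in replicate 2 (2.69 to 2.70), and between 0.822% and 4.83% in single cells. The intervals cover counting error only. Since STRT-seq counts the 3' end of each transcript once, CPM values were compared between genes without division by length. No cell held more than 6252 counts of any of the genes, well under the 65536 different sequences that an 8-base UMI allows.

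Of the 2 cytoplasmic actins, Actb (β-actin, chr5:142903115-142906754) far exceeded Actg1 (γ-actin, chr11:120345690-120348542). The Actb level was 4228 and 5487 CPM in replicates 1 and 2, and single cells ranged from 1587 through a median of 4237 to 9080 CPM in replicate 1 and from 2925 through 5855 to 16634 CPM in replicate 2. Actg1 was at 391 and 566 CPM, with single cells from 28.3 through 333 to 904 CPM and from 106 through 609 to 1379 CPM. Actb was the higher actin in every cell, 43 of 43 and 44 of 44, and made up 91.5% (91.3 to 91.8) and 90.7% (90.4 to 90.9) of the counts of both actins. Only uniquely mapped reads were counted, so that a part of the Actg1 reads could be missing. Of the 50-base words at the 3' ends of its transcripts, 49.9% also occur in transcripts of other genes, Actb among them, against 12.8% for Actb. This is a share of words and not of reads, and its effect on the Actb share was not tested.

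The β-thymosins, small proteins that hold actin monomers in reserve, lay in the range of Actb. Tmsb10 (chr6:72957347-72958748) was at 3865 and 7568 CPM, with single cells from 475 through 3539 to 15107 CPM in replicate 1 and from 2105 through 7704 to 17909 CPM in replicate 2. Tmsb4x (chrX:167207093-167209315) was at 2868 and 4869 CPM, with cells from 713 through 2316 to 6919 CPM and from 824 through 4636 to 10479 CPM. Tmsb10 held 57.4% (57.0 to 57.8) and 60.9% (60.6 to 61.1) of the counts of both thymosins and was the higher in 33 of 43 and 38 of 44 cells. In single cells its share ran from 22.3% to 87.8%, a far wider range than the 78.3% to 99.2% of Actb among the actins. The 3' ends of Tmsb10 shared 39.3% of their 50-base words with other genes, and those of Tmsb4x none.

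Profilin 1 and cofilin 1 act on opposite ends of the filament cycle, profilin by loading monomers onto growing ends and cofilin by severing old filaments. Their levels lay close to each other in both libraries. Pfn1 (chr11:70651850-70654644) was at 1155 and 2528 CPM and Cfl1 (chr19:5490455-5495201) at 1089 and 2388 CPM. Pfn1 ran from 110 through 1075 to 2670 CPM over the cells of replicate 1 and from 1207 through 2477 to 4330 CPM in replicate 2. Cfl1 ran from 87.4 through 865 to 2242 CPM and from 855 through 2277 to 5034 CPM. In replicate 2, no cell had less than 855 CPM of either gene, while in replicate 1 both fell to about 100 CPM in the lowest cells. Of the 50-base words at the 3' end, Cfl1 shared 26.3% with other genes and Pfn1 none.

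Vim, which encodes vimentin (chr2:13573927-13582826), had nearly the same level in both libraries, 1326 and 1321 CPM, but a wide spread over cells. It ran from 122 through 1517 to 5859 CPM in replicate 1 and from 292 through 1314 to 5149 CPM in replicate 2. Myl6, the essential light chain of nonmuscle myosin (chr10:128490860-128494145), was at 1193 and 1222 CPM, with 1 cell of replicate 1 at 0, and shared 28.6% of its 3' words with other genes. Tpm4, a tropomyosin that coats actin filaments (chr8:72134975-72153142), was at 419 and 646 CPM. Its cells ran from 0 through 256 to 2048 CPM in replicate 1, where 2 cells had no count, and from 126 through 586 to 1967 CPM in replicate 2.

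Anxa2, a calcium-dependent protein that links actin to membranes (chr9:69453620-69491795), was the lowest and most uneven of the genes. The summed level was 114 and 352 CPM in replicates 1 and 2. In replicate 1, 9 cells had no count, the median cell was at 13.1 CPM and the highest at 584 CPM. In replicate 2, every cell had a count, the median was 363 CPM and the cells ran from 2.34 to 1950 CPM. Vim, Tpm4, Anxa2, Pfn1 and Tmsb4x had no 50-base word at their 3' ends in common with another gene.

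**Figure D1:**
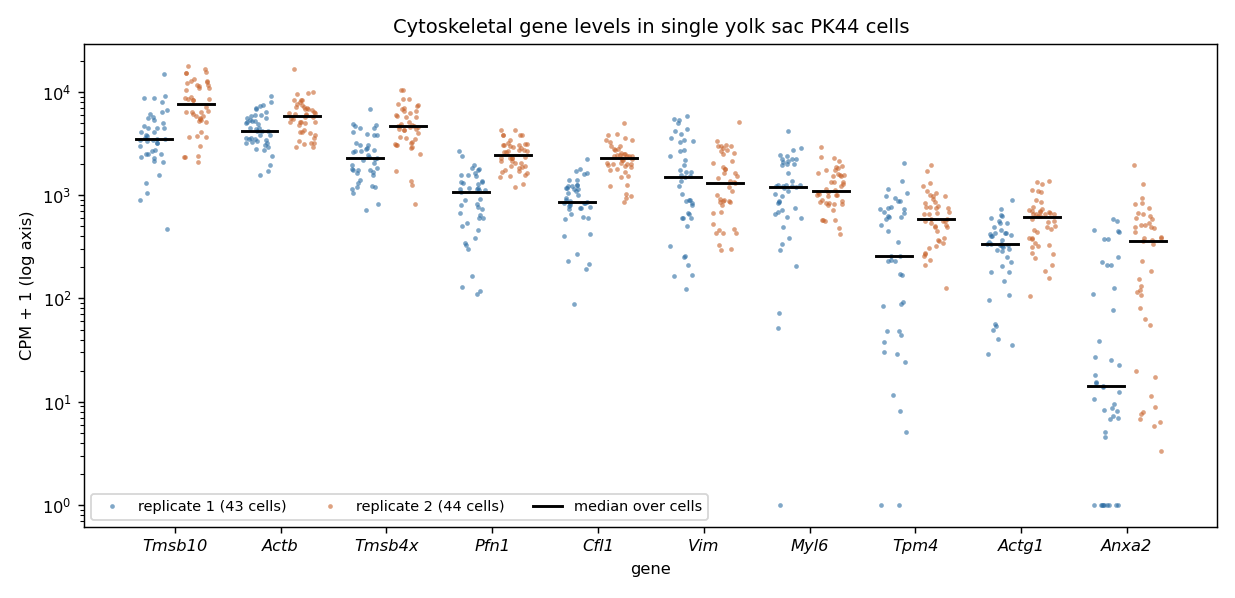
Levels of the 10 genes in single cells, as CPM plus 1 on a log axis, ordered by the mean of both libraries. Each point is a cell of replicate 1 (43 cells) or replicate 2 (44 cells), and black lines are medians over cells. Tmsb10, Actb and Tmsb4x lie highest, and Anxa2 has its median at 13.1 and 363 CPM in replicates 1 and 2.

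Ordered by the mean of both libraries (± SD, n = 2), Tmsb10 stood at 5717 ± 2618 CPM, Actb at 4858 ± 890 CPM and Tmsb4x at 3868 ± 1415 CPM, with library values that overlapped between neighbours. Pfn1 followed at 1842 ± 971 CPM, below both values of Tmsb4x, then Cfl1 at 1739 ± 918 CPM and Vim at 1323 ± 3.37 CPM, again with overlap. Myl6 stood at 1207 ± 20.4 CPM, just below both values of Vim. Tpm4 at 533 ± 160 CPM and Actg1 at 478 ± 124 CPM overlapped, and Anxa2 at 233 ± 169 CPM lay below both values of Actg1.

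The libraries differed more in some of these genes than in others. The ratio of replicate 2 to replicate 1 was 3.10 for Anxa2, 2.19 for both Cfl1 and Pfn1, 1.96 for Tmsb10 and 1.70 for Tmsb4x. It was 1.02 for Myl6 and 0.996 for Vim. Over 585 genes with a count in at least 90% of the cells of each library the median ratio was 0.962, with 80% of genes between 0.640 and 1.54. Anxa2 is not among the 585, since fewer cells of replicate 1 had a count of it. With 1 library on either side these ratios have no test, and depth differed between the libraries as well.

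The genes also differed in their spread over the cells of a library. The coefficient of variation of Actb was 0.381 in replicate 1 and 0.409 in replicate 2, lower than in all but 2.39% and 7.86% of the same 585 genes. That of Pfn1 was 0.597 and 0.316, and that of Cfl1 0.494 and 0.371. Vim, at 0.856 and 0.690, was near the medians of 0.942 and 0.678 over those genes. Anxa2, which is not among them, reached 1.59 and 1.03.

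Co-expression was measured as Spearman's rho of CPM over the cells of a library. It is a description, since the cells of a library share their preparation and CPM values share the depth of the cell. Of the 45 pairs of the 10 genes, 32 had a rho above 0 in both libraries, 5 below 0 in both and 8 opposite signs. The median over the pairs was 0.17 in replicate 1 and 0.26 in replicate 2, beside 0.028 and 0.013 over all pairs of the 601 and 1625 genes counted in at least 90% of cells of each library. Above 0 were 37 and 35 of the 45 pairs, beside 56.5% and 52.8% of all pairs of those genes. Anxa2, with a count in 34 of the 43 cells of replicate 1, is not among the 601.

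A few pairs stood out in both libraries. The thymosins Tmsb4x and Tmsb10 had a rho of 0.48 over 43 cells and 0.73 over 44 cells. Tmsb10 and Myl6 had 0.53 and 0.45, and Actb and Vim had 0.41 and 0.43. These were the 3 pairs at or above 0.4 in both libraries. In replicate 2, the thymosins also varied with Pfn1, at 0.57 for Tmsb4x and 0.63 for Tmsb10, whereas in replicate 1 these values were 0.20 and 0.17. The cofilin and profilin genes had a rho of 0.11 and 0.43. The lowest pair was Vim with Pfn1, at -0.18 and -0.34. The 2 actins were only loosely tied, at 0.21 and 0.30, and Actb and Tmsb4x had opposite signs, at 0.22 and -0.18.

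**Figure D2:**
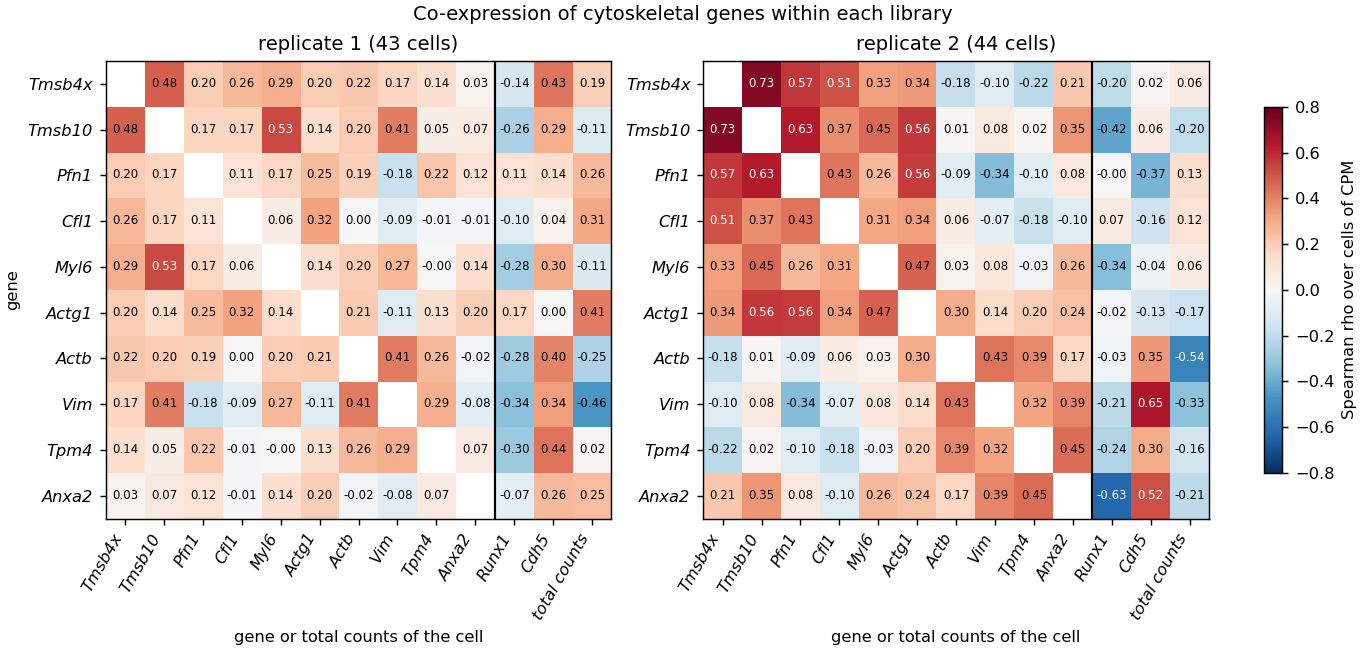
Spearman's rho of CPM over cells for every pair of the 10 genes, and of each gene with Runx1, Cdh5 and the total counts of the cell (right of the black line), by library. Tmsb4x and Tmsb10 reach 0.48 and 0.73, and Vim with Pfn1 lies at -0.18 and -0.34.

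The genes most like Actb, Tmsb4x and Vim were ranked by the lower of the 2 library rhos among 584 genes. Beside Actb stood Vim, then Sparc, a secreted matrix protein (0.38 and 0.50), and Marcks, a protein that anchors actin at the membrane (0.37 and 0.50). Beside Tmsb4x stood Ftl1, the ferritin light chain (0.51 and 0.78), then Tmsb10 and the collagen IV gene Col4a2 (0.48 and 0.41). Beside Vim stood Sparc (0.65 and 0.54), Rasip1, a Ras-interacting protein of endothelial cells (0.50 and 0.53), and Nrp1, a VEGF co-receptor (0.57 and 0.49).

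The correlation with Runx1 was below 0 in both libraries for Actb, Tmsb4x, Tmsb10, Vim, Myl6, Tpm4 and Anxa2. For Vim it was -0.34 and -0.21, for Tmsb10 -0.26 and -0.42, for Myl6 -0.28 and -0.34, and for Tpm4 -0.30 and -0.24. Anxa2 had the strongest value of all, -0.63 in replicate 2, but -0.07 in replicate 1, where many cells had few or no counts of it. In cells thinned to 20000 counts these values were -0.50 and -0.21. Pfn1 had 0.11 and -0.0014, and Cfl1 -0.10 and 0.074. The median over all genes counted in at least 90% of cells was 0.082 and 0.068.

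With Cdh5, rho was above 0 in both libraries for Actb (0.40 and 0.35), Vim (0.34 and 0.65), Tpm4 (0.44 and 0.30), Anxa2 (0.26 and 0.52) and Tmsb10 (0.29 and 0.062). Tmsb4x had 0.43 in replicate 1 and 0.016 in replicate 2. Pfn1 changed sign, with 0.14 and -0.37. The medians over all genes were -0.058 and -0.063. Runx1 and Cdh5 themselves had a rho of -0.35 and -0.47. Depth moved with several of these levels, with a rho to the total counts of -0.25 and -0.54 for Actb and -0.46 and -0.33 for Vim, and of 0.34 and 0.35 for Runx1.

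To compare cells with more and less Runx1, the cells of each library were divided at the median Runx1 CPM of that library. Runx1 was at 300.4 and 136 CPM in the libraries, and the highest Runx1-low and lowest Runx1-high cells lay close together, at 52.2 and 52.7 CPM in replicate 1 and at 8.85 and 11.2 CPM in replicate 2. The counts of the Runx1-high and Runx1-low cells were then summed, which gave 4 sums, and fitted with the library as a block. Vim and Anxa2 fell in Runx1-high cells, by 2.21-fold and 3.20-fold, and they were 2 of the 10 genes, with 1.19% of the 10629 genes tested called lower. None of the 10 was called higher, beside 0.376% of all genes. The remaining 8 did not pass the test.

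The Vim level was 2225 CPM in Runx1-low and 830 CPM in Runx1-high cells of replicate 1, and 1773 and 1018 CPM in replicate 2. Both Runx1-high sums lay below both Runx1-low sums, and the share of all genes tested without such overlap was not counted. The log2 fold change was -1.14 (SE 0.26), adjusted p = 0.00172 in the quasi-likelihood test of edgeR after Benjamini-Hochberg correction, and the values within libraries were -1.48 and -0.80. Single cells overlapped widely, since Runx1-high cells ran from 122 through 653 to 5859 CPM in replicate 1 and from 292 through 892 to 5149 CPM in replicate 2, against 170 through 1950 to 5449 CPM and 328 through 1587 to 3357 CPM in Runx1-low cells.

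The Anxa2 level was 174 CPM in Runx1-low and 80.6 CPM in Runx1-high cells of replicate 1, and 660 and 146 CPM in replicate 2. The Runx1-high sums were again below the Runx1-low sums, with the larger gap in replicate 2. The log2 fold change was -1.68 (SE 0.39, adjusted p = 0.00285 by the same edgeR test), with -1.17 and -2.18 within libraries. In replicate 1 the median cell held 20.3 CPM among Runx1-low and 8.51 CPM among Runx1-high cells, a smaller gap than that between the sums. In replicate 2 the medians were 555 and 71.2 CPM.

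Tmsb10 was at 4648 and 3435 CPM in Runx1-low and Runx1-high cells of replicate 1 and at 10018 and 5923 CPM in replicate 2, a log2 fold change of -0.63 (SE 0.20, adjusted p = 0.0928, edgeR). Its adjusted p was 0.00823 with DESeq2, 0.0326 with another scaling in edgeR and 7.3e-05 in edgeR with every cell thinned to 20000 counts. The other alternatives did not call it. In edgeR the adjusted p was 0.0626 between tertiles, 0.142 without the low-count filter and 0.969 without the block. It was 0.205 in edgeR without the cells with mesenchymal counts, and 0.409 with limma and equal weight of cells. Myl6 had 1517 and 1014 CPM in replicate 1 and 1510 and 1028 CPM in replicate 2, a log2 fold change of -0.60 (SE 0.26, adjusted p = 0.388, edgeR). For Tpm4, the difference was -0.72 (SE 0.31, adjusted p = 0.395), with -1.10 and -0.34 within libraries. The other 5 genes lay between -0.25 (Actb) and 0.13 (Pfn1), and over all genes tested the median was 0.07. In all, 8 of the 10 lay below 0, and 6 did so in both libraries.

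Without the block, edgeR called 0 of the 10 genes, and 0.00941% of all genes, with 2 of the 10 and 588 of all genes at an unadjusted p under 0.05. There the adjusted p was 0.725 for Vim and 0.780 for Anxa2. Runx1-low cells were shallower, with median counts of 95376 against 260240 in replicate 1 and 213444 against 271734 in replicate 2. With cells thinned to 20000 counts the log2 fold changes were -0.64 for Vim (adjusted p = 0.0726) and -1.22 for Anxa2 (adjusted p = 0.216), neither past the threshold. All 8 endothelial markers had counts in every sum, and together they were at 3704 and 5730 CPM in Runx1-low and at 1662 and 3090 CPM in Runx1-high cells. The 7 hematopoietic markers went from 388 to 769 CPM and from 69.4 to 425 CPM. Runx1, which divided the cells, is among them, so that part of this rise was set by the division. Their sum without Runx1 was not taken, and a rise of the other hematopoietic markers cannot be read from it. The 5 macrophage markers went from 33.7 to 89.6 CPM and from 11.6 to 39.1 CPM. The part of all these markers in the result was not tested. All 3 cells with mesenchymal counts were Runx1-low, and without them the log2 fold changes were -1.17 for Vim and -1.78 for Anxa2, as large as with them.

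**Figure D3:**
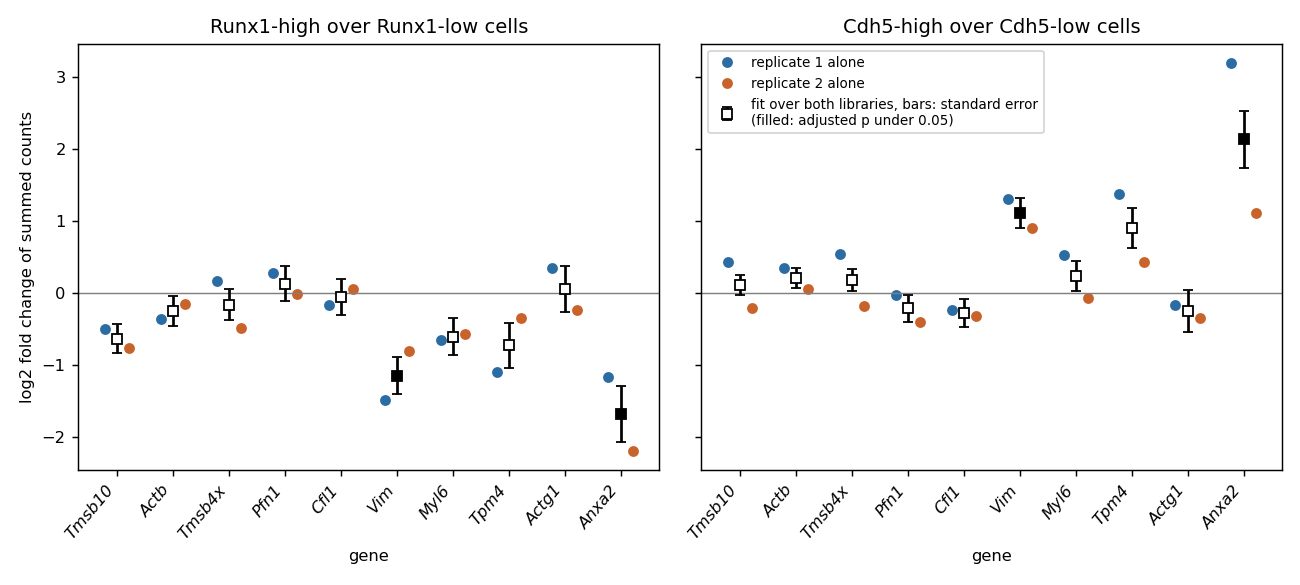
Log2 fold changes of summed counts between Runx1-high and Runx1-low cells (left) and between Cdh5-high and Cdh5-low cells (right). Squares are the fit over both libraries with the standard error, filled where the adjusted p is under 0.05, and circles are the libraries alone. Vim and Anxa2 are filled in both panels, at -1.14 and -1.68 on the left and 1.11 and 2.14 on the right.

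Dividing the same 87 cells at the median of Cdh5 asked which of these genes went with the endothelial junction gene. Cdh5 was at 463 and 632 CPM, and the division lay between 299.6 and 377 CPM in replicate 1 and between 566 and 584 CPM in replicate 2. Both divisions use the same cells and are not independent of each other. Only 9 cells of replicate 1 and 7 of replicate 2 were high for both genes. Vim and Anxa2 rose in Cdh5-high cells, by 2.16-fold and 4.40-fold, as 2 of the 10 genes, with 1.17% of the 10692 genes tested called higher. None of the 10 was called lower, beside 0.561% of all genes, and the remaining 8 did not pass the test.

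For Vim, the sums were 820 CPM in Cdh5-low and 2032 CPM in Cdh5-high cells of replicate 1, and 914 and 1765 CPM in replicate 2. The values within each class were close across the libraries, and the classes did not overlap, a trait that was not counted over all genes tested. The log2 fold change was 1.11 (SE 0.21, adjusted p = 2.64e-05, edgeR), with 1.31 and 0.91 within libraries. In replicate 2, Cdh5-low cells ran from 292 through 882 to 1809 CPM and Cdh5-high cells from 667 through 2320 to 5149 CPM, while in replicate 1 Cdh5-low cells also reached 5449 CPM.

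For Anxa2, the sums were 25.7 and 236 CPM in replicate 1 and 222 and 494 CPM in replicate 2. Both Cdh5-high sums exceeded both Cdh5-low sums, although the lower of the former and the higher of the latter were close. The log2 fold change was 2.14 (SE 0.39, adjusted p = 1.87e-05, edgeR), with 3.19 in replicate 1 and 1.11 in replicate 2. Median cells were at 8.67 and 110 CPM in replicate 1 and at 114 and 487 CPM in replicate 2. Without the 3 cells with mesenchymal counts, all of them Cdh5-low, the log2 fold change of Anxa2 was 3.11 and that of Vim 1.36.

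Tpm4 had 252 and 653 CPM in Cdh5-low and Cdh5-high cells of replicate 1 and 543 and 759 CPM in replicate 2, with a log2 fold change of 0.91 (SE 0.28, adjusted p = 0.0615, edgeR). The other 7 genes lay between -0.28 (Cfl1) and 0.24 (Myl6), beside a median of -0.05 over all genes tested. Actb, at 0.21 (SE 0.14), and Actg1, at -0.25 (SE 0.29), had opposite signs. The sums of Tmsb10 were 3372 and 4555 CPM in replicate 1 and 7975 and 7123 CPM in replicate 2, so that its direction differed between the libraries. Between the upper and the lower tertile of cells by Cdh5, Tmsb10 was called higher, with a log2 fold change of 0.72 (adjusted p = 0.00879, edgeR). That fit called 160 of 9715 genes higher. No other alternative called Tmsb10, and their lowest adjusted p was 0.203 (edgeR, without the cells with mesenchymal counts).

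Without the block, edgeR called 0 of the 10 genes, and 0% of all genes, with 1 of the 10 and 536 of all genes at an unadjusted p under 0.05. Cdh5-high cells were the shallower here, with median counts of 93911 against 168606 and 207920 against 257500. The 8 endothelial markers, Cdh5 among them, all had counts in every sum. They were together at 1055 and 2952 CPM in Cdh5-low and at 4248 and 5460 CPM in Cdh5-high cells. Cdh5 divided the cells, so that part of this difference was set by the division. The 7 hematopoietic markers went from 665 to 589 CPM in replicate 1 and from 430 to 121 CPM in replicate 2, and the 5 macrophage markers from 117 to 3.22 CPM and from 39.0 to 16.0 CPM, with C1qa, C1qb and Adgre1 at 0. The part of these markers in the result was not tested. In cells thinned to 20000 counts Vim kept its call (log2 fold change 0.92, adjusted p = 0.0491), and Anxa2 had 1.33 (adjusted p = 0.239).

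**Figure D4:**
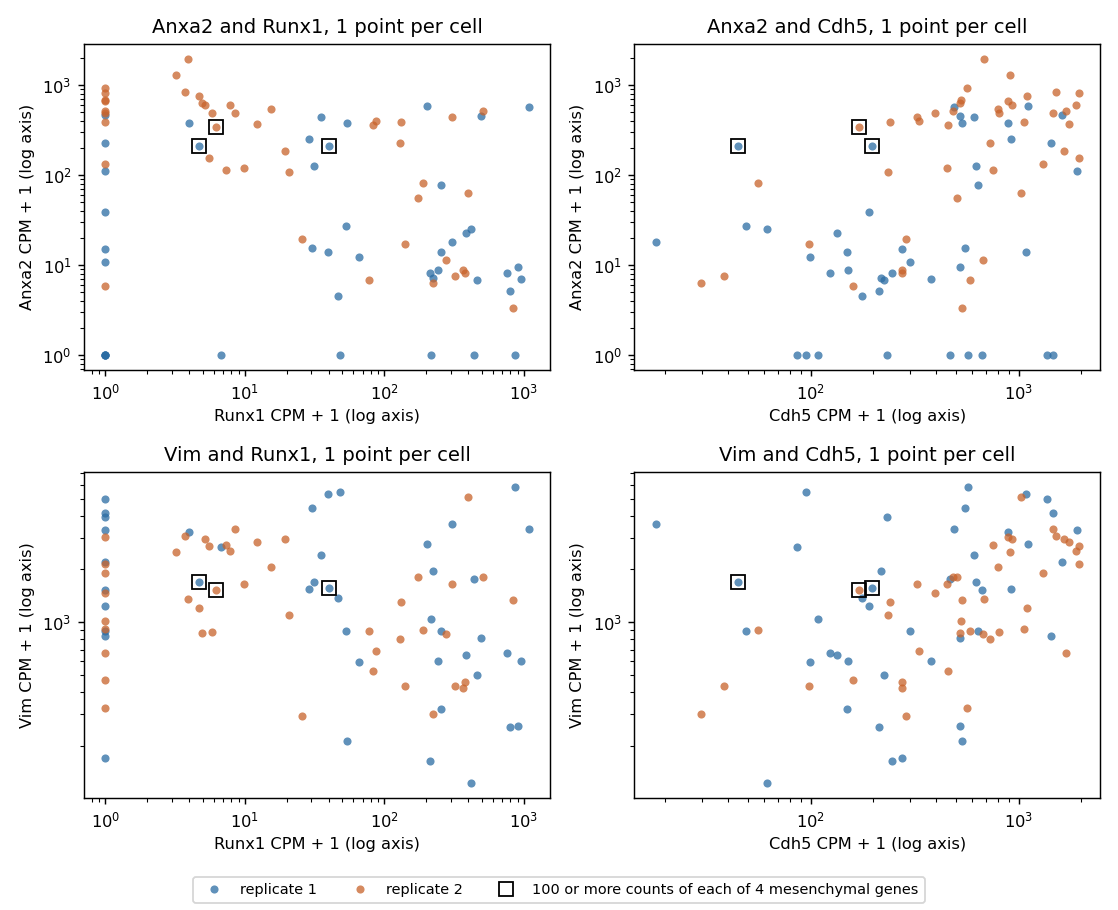
Anxa2 (top) and Vim (bottom) against Runx1 (left) and Cdh5 (right), as CPM plus 1 on log axes, with 1 point for each of the 43 and 44 cells. Black squares mark the 3 cells with at least 100 counts of each of 4 mesenchymal genes. For Anxa2 and Runx1, the cells of replicate 2 spread from high Anxa2 at low Runx1 to low Anxa2 at high Runx1 (rho -0.63), which those of replicate 1 hardly do (rho -0.07).

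Other genes of the actin cytoskeleton were taken from a list of 113 genes in 9 classes, of which 111 had a row and 104 were tested. The most abundant were the tropomyosin Tpm3 (755 and 910 CPM), Marcksl1 (596 and 859 CPM) and Marcks (602 and 825 CPM), both membrane anchors of actin, Rdx, the membrane linker radixin (797 and 559 CPM), and the small GTPase Cdc42 (521 and 643 CPM). All lay below the 7 most abundant of the 10 genes.

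Between Runx1-high and Runx1-low cells, 3 of the 104 genes fell and 1 rose, beside 1.19% called lower and 0.376% called higher of all genes tested. Coro1a, the coronin of blood cells that acts on actin branches, rose from 62.4 to 264 CPM in replicate 1 and from 7.25 to 243 CPM in replicate 2 (log2 fold change 3.49, SE 0.56). Cald1, the caldesmon that binds actin and myosin, fell from 452 to 117 CPM and from 693 to 137 CPM (-2.18, SE 0.36). Marcks fell from 1062 to 349 CPM and from 1161 to 599 CPM (-1.31, SE 0.29), and Anxa5, another annexin, from 337 to 95.1 CPM and from 388 to 208 CPM (-1.39, SE 0.39). The median log2 fold change over the list was -0.37, beside 0.07 over all genes tested, and 68 of the 104 lay below 0. By class, 14 of 16 membrane and adhesion linkers, 10 of 11 annexin and S100 genes and 12 of 15 tropomyosin, myosin and calponin genes lay below 0, against 6 of 14 genes of the Arp2/3 complex and its activators.

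Between Cdh5-high and Cdh5-low cells, 3 of the 104 genes rose and 1 fell, beside 1.17% called higher and 0.561% called lower of all genes tested. Marcks rose from 227 to 1127 CPM in replicate 1 and from 530 to 1147 CPM in replicate 2 (log2 fold change 1.69, SE 0.26). Cald1 rose from 119 to 400 CPM and from 198 to 538 CPM (1.58, SE 0.34). Anxa3 rose from 2.69 to 86.7 CPM and from 62.7 to 118 CPM (2.81, SE 0.82), with most of the difference in replicate 1. Coro1a fell from 281 to 67.6 CPM and from 198 to 94.2 CPM (-1.58, SE 0.44). The list median was 0.22, beside -0.05 over all genes, and 67 of 104 genes lay above 0. Of the linkers, 14 of 16 lay above 0, and of the Arp2/3 genes 7 of 14. Without the block edgeR called 0 of the list in either comparison. At an unadjusted p under 0.05 were 12 and 6 of the 104, beside 588 of 10629 and 536 of 10692 genes tested.

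**Figure D5:**
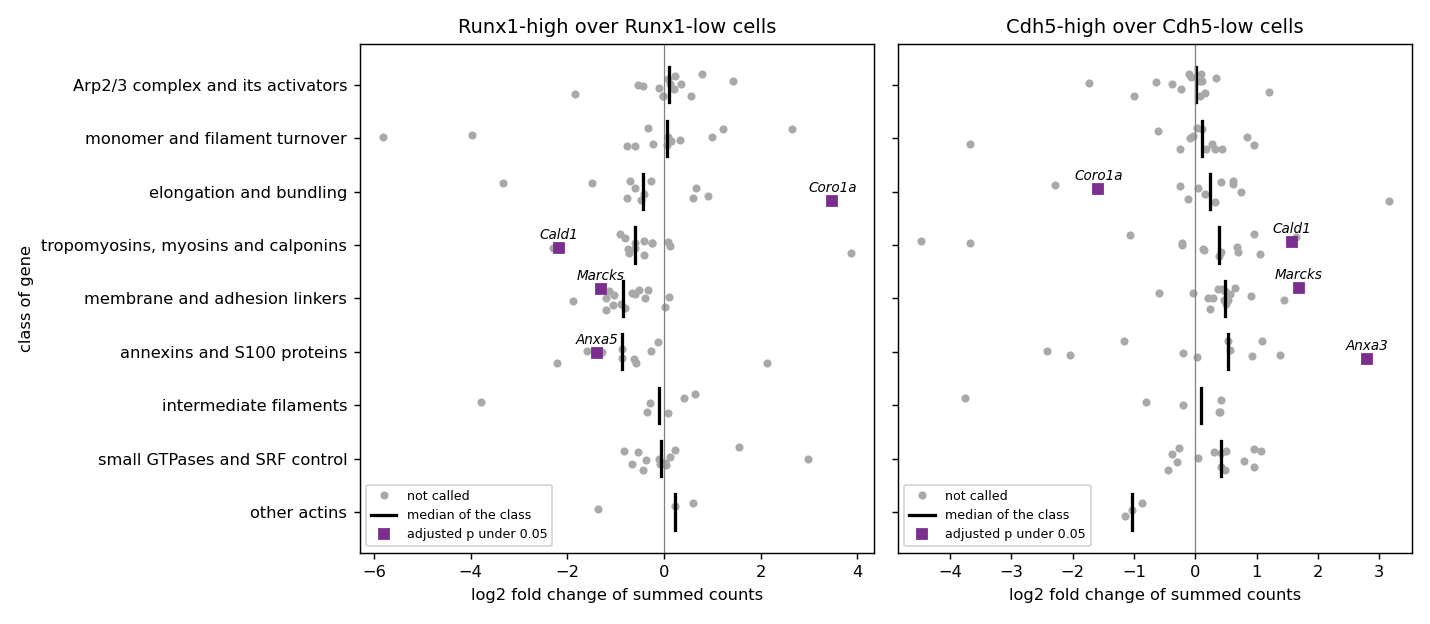
Log2 fold changes of the 104 other actin cytoskeleton genes by class, between Runx1-high and Runx1-low cells (left) and Cdh5-high and Cdh5-low cells (right). Each point is a gene, purple squares have an adjusted p under 0.05 and black lines are class medians. Coro1a is at 3.49 on the left and -1.58 on the right, and the linkers have medians of -0.85 and 0.48.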

How the data were processed

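Counts per gene and cell were used as deposited. The authors split reads by cell barcode, aligned them to mm10 with HISAT2 2.1.0, counted uniquely mapped reads with HTSeq and collapsed duplicates by UMI. The deposited counts were not normalized. Low-quality cells had been removed before, and all deposited cells entered, without a doublet caller. The barcode tables were not used here.

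CPM were counts per 1000000 of all counts of a cell or sum. Cells were divided at the median CPM of Runx1 or Cdh5 of their library (cells above the median were high), raw counts were summed per library and class, and the 4 sums were fitted with edgeR 4.0.16 in R 4.3.3 (library as a block, quasi-likelihood test, TMM scaling, genes kept by filterByExpr, Benjamini-Hochberg over all genes tested, threshold 0.05), without the gene used for the division. Sums with the same replicate number come from the same library, which pairs them. With 1 residual degree of freedom, the spread of a gene was taken almost wholly from the other genes. Alternatives were no block, DESeq2 1.42.0, DESeq2-type (RLE) size factors, no low-count filter, cells thinned to 20000 counts (seed 7, leaving out 1 cell), upper against lower tertile, equal weight of cells with limma 3.58.1 on log2(CPM + 1), no cells with mesenchymal counts, and each library alone, which has no test. In simulated counts with 200 changed genes the Runx1 fit recovered 2.5%, 35.5% and 77.5% of log2 changes of 1, 2 and 4 (10012, 10028 and 10005 genes), and the Cdh5 fit 1%, 44.5% and 74% (10070, 10059 and 10030 genes), so that most changes of 1 were missed. False calls numbered 1 to 9.

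The members and lists were chosen with earlier results of these data known. Named were the 10 genes, of the wider list the 5 most abundant and up to 5 called genes per fit and direction by size, and the 3 genes most like Actb, Tmsb4x and Vim. Coordinates are from GENCODE on GRCm38, and sequences from RefSeq. Shared words were looked for among all 50-mers in the last 500 bases of annotated coding transcripts, pooled per gene. Other software was numpy 2.4.6, scipy 1.17.1, pandas 2.3.3 and matplotlib 3.10.9 under Python 3.11.15.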

Additional observations from a re-analysis of the deposited data

How the results depend on the processing

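Of the 10 genes, 2 were called in either comparison with the library block. Without the replicate block the number was 0 and 0 (Runx1 and Cdh5), and with thinned cells 1 (Tmsb10) and 1 (Vim). With equal weight of cells in limma it was 0 and 0. There 5 and 3 of the 10 had an unadjusted p under 0.05, beside 1045 of 10629 and 1040 of 10692 genes tested. In that limma fit the Runx1 log2 fold changes were -0.70 for Vim (adjusted p = 0.397) and -0.95 for Anxa2 (adjusted p = 0.479). Those for Cdh5 were 1.02 (adjusted p = 0.0505) and 1.85 (adjusted p = 0.0646). Of the wider list, 4 and 4 genes were called. That number was 0 and 0 without the block, 7 and 2 with DESeq2 and 0 and 1 with limma. For Cdh5 it was 2 of 93 tested with thinned cells and 7 of 103 tested without the cells with mesenchymal counts. Those 2 fits called 32 of 6962 and 225 of 10553 of all genes tested. Over all genes, 166 were called for Runx1, against 1 without the block, 294 with DESeq2, 100 with thinned cells and 7 with limma, and 185 for Cdh5, against 0, 171, 32 and 31. Vim and Anxa2 kept their direction in each of the 8 alternatives with a test and in each library alone. Among the other 8 genes, sign changes under these 8 were limited to 3 genes with small differences. For Runx1, Actg1 went to -0.00028 without the block, -0.13 with thinned cells and -0.14 with upper against lower tertile, where Pfn1 went to -0.00056. For Cdh5, the same tertiles gave 0.20 for Actg1, 0.080 for Cfl1 and 0.16 for Pfn1. The median rho over pairs of the 10 genes was 0.65 and 0.60 in counts that were not scaled for depth, and stayed between 0.16 and 0.18 in replicate 1 and between 0.23 and 0.27 in replicate 2 in the other alternatives. Of 200 alternative values of the correlations with Runx1 and Cdh5, 47 moved by more than the spread between libraries, 33 of them in counts not scaled for depth, where Vim and Runx1 had 0.071 and 0.18, and 9 in thinned cells. The cause of these differences was not tested. The summed level of the 10 genes was 16648 CPM in replicate 1 and 26947 CPM in replicate 2. The depth of the shallowest cells, 13218 counts, limits what 0 counts of Anxa2 or Tpm4 can show.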

Other observations

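Microtubule genes were described by a list of 13 tubulin and related genes, of which 11 were tested for Runx1 and 10 for Cdh5. Tuba1a, an α-tubulin, fell in Runx1-high cells, from 161 to 45.8 CPM in replicate 1 and from 465 to 162 CPM in replicate 2 (log2 fold change -1.70, SE 0.41, adjusted p = 0.00626 in the edgeR fit, and 0.881 without the library block). It was the only gene of the list called in that comparison, and its call was absent without the 3 cells with mesenchymal counts, in thinned cells and with limma. Tuba1b, another α-tubulin, was at 333 and 601 CPM in replicate 1 and at 697 and 925 CPM in replicate 2, which did not pass the test (0.60, SE 0.30). Tubb5, the most abundant β-tubulin of the list, was at 2167 and 3295 CPM and at 2671 and 2473 CPM, so that its direction differed between the libraries. Between Cdh5-high and Cdh5-low cells 0 genes of the list were called by edgeR. Of the 10 tested, 2 had an unadjusted p under 0.05, beside 975 of 10692 genes. DESeq2 called 0 as well. Tuba1a alone was called, as higher, between upper and lower tertiles and without the 3 cells with mesenchymal counts.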
